A study of Mus musculus with 6 samples.

Results

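D-type cyclins, their kinase partners CDK4 and CDK6, and the inhibitors of these kinases were examined in mouse dorsal root ganglion (DRG) and neurofibroma tissue. The members were taken by name as 10 genes: the D cyclins Ccnd1, Ccnd2 and Ccnd3, the kinases Cdk4 and Cdk6, the CIP/KIP inhibitors Cdkn1a (p21) and Cdkn1b (p27), and the INK4 inhibitors Cdkn2a, Cdkn2b (p15) and Cdkn2c (p18). All 10 were among the 24062 genes of the count files, and 9 were among the 15652 genes that passed the filter on low counts. Cdkn2a did not pass, since the filter asks for its minimum in at least 3 libraries.

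Bulk RNA-seq gave 6 libraries. Of these, 3 came from mice of the genotype Nf1fl/fl;DhhCre, labelled as DRG and nerve tissue, which develop neurofibromas after loss of Nf1. The other 3 carry the genotype label Rx1flfl;Rx3fl/fl;DhhCre and are called double-knockout tumors of Runx1 and Runx3. The protocol text and the methods of the study give these mice Nf1fl/fl as well, so that both groups would lack Nf1. The tissue label therefore differs between the groups along with the genotype, although the methods of the study give DRG/tumors as the source of both. Where the tissue does differ, its effect and that of the genotype cannot be told apart. Both groups share the C57BL/6-I129 background, and ages are not in the labels. The Cre recombinase was driven by Dhh, which acts in Schwann cells (SCs) and their precursors, so that cells outside this lineage, such as neurons and macrophages, would keep intact alleles. Each library's title carries a number of its own, but the labels do not state whether it names a single animal. The p-values measure the spread between these libraries.

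In the G1 phase of the cell cycle, a D cyclin binds CDK4 or CDK6, and the complex phosphorylates the retinoblastoma protein and its relatives, which releases E2F transcription factors. INK4 proteins bind CDK4 and CDK6 and keep the cyclin away, while p21 and p27 bind cyclin-CDK complexes and block chiefly those that contain CDK2. Loss of the Ras regulator encoded by Nf1 raises mitogenic signalling, for which transcription of Ccnd1 is a classical endpoint. The comparison asked how the level of each gene differed when Runx1 and Runx3 were deleted in addition.

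The libraries held 12439296 to 16682194 counted reads. Over all genes tested by limma-voom, 839 genes (5.36%) were called lower in the double knockout and 1257 (8.03%) were called higher, a call being an adjusted p under 0.05 with more than a 2-fold change. At an adjusted p under 0.05 whatever the fold, the shares were 8.22% lower and 11.1% higher. The ranges of the 2 groups did not overlap, with the double knockout below, for 20.5% of the genes, and above for 21.8%. The targeted genes check the labels. Runx1 was at 130.7, 140.7 and 171.6 CPM (reads of a gene scaled to a common library total) in the Nf1fl/fl;DhhCre libraries and at 84.0, 78.9 and 185.4 in the libraries labelled double knockout. Replicate 3 of the libraries labelled double knockout was thus the highest of all 6, and the difference did not pass (log2 fold change -0.44, adjusted p = 0.370). Without that replicate it was -0.85 (adjusted p = 0.0290). Runx3 was at 19.9, 15.1 and 29.9 CPM against 13.5, 10.3 and 12.1 (log2 fold change -0.79, adjusted p = 0.104). Nf1, labelled as floxed in one group and by the protocol text in both, was at 334.4, 273.2 and 298.3 CPM against 266.2, 263.1 and 341.6, with overlap (log2 fold change -0.06, adjusted p = 0.809). The floxed regions are not given in the sources used here, so reads outside them would not report deletion. By the labels this replicate 3 also came from a sequencing run of its own, although the numbers in the deposited columns would make that library replicate 2, and the members called without each of them are given below. Here "double knockout" means the libraries so labelled.

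Marker genes of other cells also moved between the groups. All 15 DRG sensory neuron markers were called higher in the double knockout, with summed levels of 6485 to 14622 CPM against 1299 to 2685. Of 12 macrophage markers, 10 were called lower, at 228.9 to 552.9 against 1293 to 2473 CPM in sum. Among 7 fibroblast markers, 4 were called lower (2866 to 4605 against 7821 to 8598 CPM), and among 8 myelinating SC markers 6 were called higher (3265 to 3882 against 1382 to 1731 CPM). General SC markers differed less: of Sox10, Erbb3, S100b, Cdh19 and Foxd3, S100b was called higher and the others were not called (849 to 1099 against 758 to 795 CPM in sum). Of 3 perineurial markers, which summed to 357 to 590 against 741 to 1416 CPM, Cldn1 was called lower, and of 3 satellite glial markers Fabp7 was called higher and Kcnj10 lower. No marker of T cells (6 tested), mast cells (6), endothelial cells (6) or skeletal muscle (7) was called. The T cell markers nevertheless summed to lower levels in every double-knockout library (4.56 to 6.77 against 12.3 to 46.7 CPM), with a median log2 fold change of -1.56. Summed muscle markers reached 11189 CPM in double-knockout replicate 2 and 2159 in Nf1fl/fl;DhhCre replicate 2, against 5.52 to 63.0 in the other 4 libraries. No marker of any list was at 0 in all libraries. The part of these cells in the results below was not tested, and in bulk tissue fewer cells of a type and less RNA per cell cannot be told apart.

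The promoter sequences of 8 of the 10 members were held in RefSeq's table (GRCm38.p6), as 12 windows of the 250 bases before a transcription start. Ccnd1 and Ccnd2 had no window and were not searched. RUNX factors bind the letters TGTGGT or TGCGGT, which were searched on both strands, and 18.6% of all 32851 promoter windows of this length held at least 1 copy. Of the 8 members searched, Cdk4 alone held it, in 1 window, with 2 copies that begin 154 and 66 bases before the start. Both read ACCACA on the printed strand, the reverse complement of TGTGGT. The E2F letters TTTCGCGC or TTTGGCGC were in none of the 12 windows and in 0.654% of all windows. A match of letters is a description and not a bound site. The window of Cdk6, called lower below, and a further window of Ccnd3 lack both motifs and are not printed. The Cdk4 window is shown because it alone of the windows searched carries the RUNX letters (in capitals). Those of Cdkn2b and Ccnd3 are shown as examples from members called lower that lack both motifs. Each is printed 5′ to 3′ on the strand of the gene.
Cdk4, chr10:127063285-127063534, plus strand: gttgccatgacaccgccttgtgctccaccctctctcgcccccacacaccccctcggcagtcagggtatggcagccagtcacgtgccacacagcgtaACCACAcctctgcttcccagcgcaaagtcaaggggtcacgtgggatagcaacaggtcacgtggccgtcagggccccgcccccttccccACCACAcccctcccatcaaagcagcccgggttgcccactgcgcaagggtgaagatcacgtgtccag
Cdkn2b, chr4:89311033-89311282, minus strand: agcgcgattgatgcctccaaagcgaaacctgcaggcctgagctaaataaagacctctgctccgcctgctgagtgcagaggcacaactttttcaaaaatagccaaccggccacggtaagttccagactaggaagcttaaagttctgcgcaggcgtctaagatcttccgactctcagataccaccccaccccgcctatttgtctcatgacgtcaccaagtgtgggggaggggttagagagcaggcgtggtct
Ccnd3, chr17:47504801-47505050, plus strand: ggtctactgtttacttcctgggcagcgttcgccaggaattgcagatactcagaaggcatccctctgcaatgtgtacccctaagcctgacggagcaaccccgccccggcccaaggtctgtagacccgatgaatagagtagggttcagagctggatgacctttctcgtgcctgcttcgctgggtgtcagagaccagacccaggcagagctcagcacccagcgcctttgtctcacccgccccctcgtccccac

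All 3 D cyclins were called lower in the double knockout, with mean CPM 2.61- to 3.73-fold lower. Ccnd1 lies at chr7:144929931-144939925 on the minus strand (GRCm38). It encodes the D cyclin that mitogens induce most directly, and it was at 1103, 811 and 1438 CPM in Nf1fl/fl;DhhCre replicates 1, 2 and 3 and at 398.5, 213.2 and 286.6 CPM in the double knockout. The highest double-knockout library was below the lowest of the other group. The means were 1117 ± 314 and 299.4 ± 93.3 CPM (SD, n = 3 each), or 3.73-fold lower in the double knockout. The fitted log2 fold change was -1.91 (SE 0.28, 95% confidence interval -2.56 to -1.26, adjusted p = 0.0103). Leaving out each library gave -2.09 to -1.67, and the call was lost only without Nf1fl/fl;DhhCre replicate 1, where it was -1.87 with an adjusted p of 0.05003. It was -1.69 without double-knockout replicate 2 (adjusted p = 0.0339) and -1.89 without replicate 3 (adjusted p = 0.0244).

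Ccnd2 (chr6:127125162-127152193, minus strand), a D cyclin that is prominent in neural progenitors and blood cells, was at 303.0, 175.0 and 336.0 CPM in Nf1fl/fl;DhhCre and at 154.4, 68.2 and 84.9 CPM in the double knockout. The groups did not overlap, although replicate 2 of the first and replicate 1 of the second lay close together. Its mean CPM was 2.65-fold lower, and the fitted change on the log2 scale was -1.44 (SE 0.35, adjusted p = 0.0316). Ccnd2 lost its call without Nf1fl/fl;DhhCre replicate 1 (-1.30) or 3 (-1.22), and without double-knockout replicate 2 (-1.20) or 3 (-1.34). Ccnd3 (chr17:47505051-47599691, plus strand), the D cyclin most widely used in differentiating cells, was the lowest of the 3. It was at 35.9, 23.4 and 40.5 CPM against 13.5, 9.95 and 14.7 CPM, again without overlap. The change was -1.35 on the log2 scale (SE 0.28, adjusted p = 0.0212). Its call was lost without Nf1fl/fl;DhhCre replicate 1 (-1.24) or 3 (-1.14) and without double-knockout replicate 2 (-1.18). Reads of Ccnd2 could not be told apart from those of the antisense gene 9330179D12Rik, nor those of Ccnd3 from Bysl, where they overlap, since the strand setting of the counting is not given in the sources used here. Ccnd1 overlaps LTO1 on the opposite strand. That name is not among the counted genes, but older names of it were not searched.

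**Figure D1:**
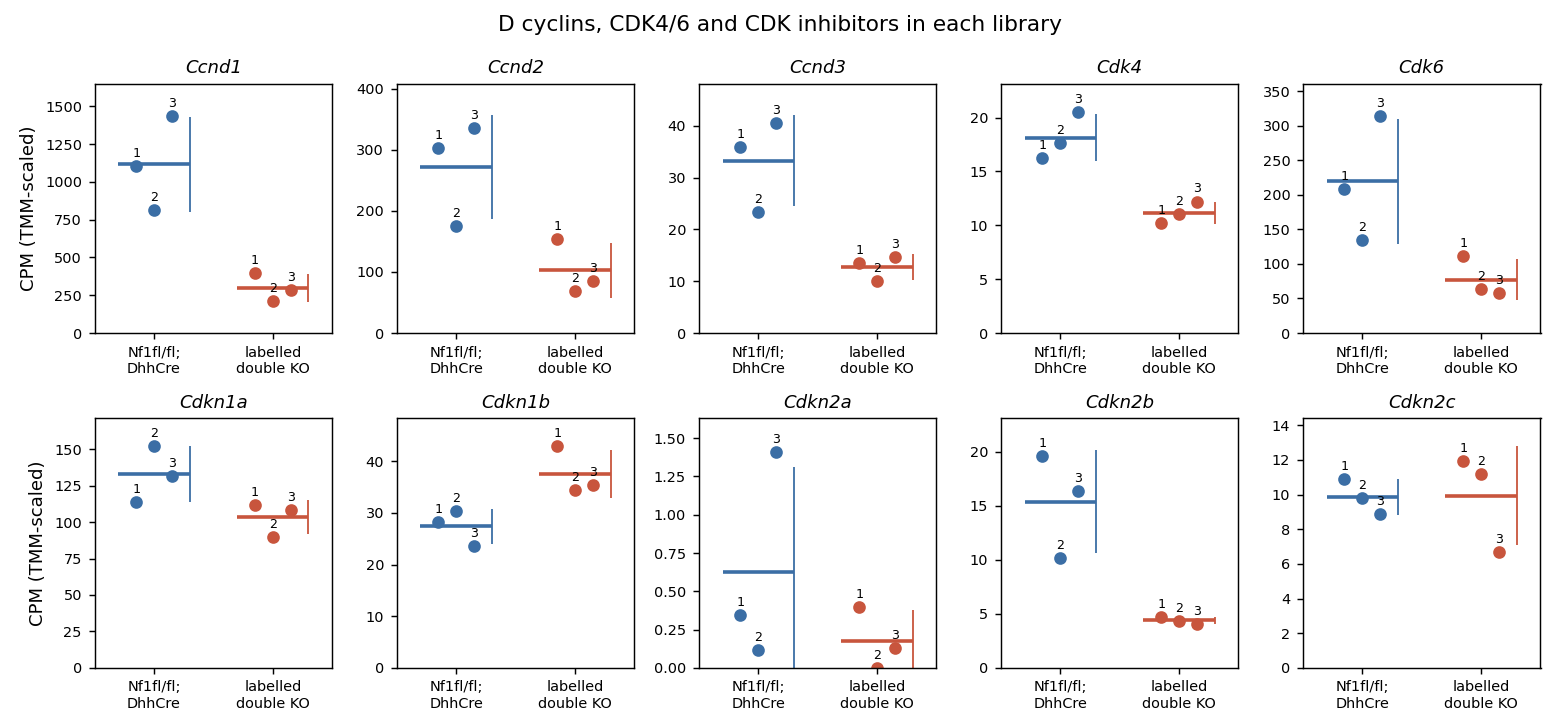
Each point is the level (TMM-scaled CPM, linear axis from 0) of a gene in 1 library, numbered by replicate, with Nf1fl/fl;DhhCre in blue and the libraries labelled double knockout in red; horizontal lines are means and vertical lines SD (n = 3), ending at 0 where the SD passes it. Every double-knockout point lies below every Nf1fl/fl;DhhCre point for the 3 D cyclins, both kinases, Cdkn1a and Cdkn2b, and above them for Cdkn1b.

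Of the kinases, Cdk6 was called lower and Cdk4 passed the adjusted p without reaching 2-fold. Cdk6 (chr5:3341485-3531008, plus strand) was at 209.0, 134.0 and 314.6 CPM in Nf1fl/fl;DhhCre and at 111.6, 63.2 and 57.3 CPM in the double knockout. The groups did not overlap, and the spread within Nf1fl/fl;DhhCre was wide (219.2 ± 90.7 against 77.4 ± 29.8 CPM, SD). The log2 fold change was -1.49 (SE 0.37, 95% confidence interval -2.34 to -0.63, adjusted p = 0.0326), and the call was lost without Nf1fl/fl;DhhCre replicate 1 (-1.45) or 3 (-1.14) and without double-knockout replicate 2 (-1.38) or 3 (-1.29). Cdk4 (chr10:127063534-127067920, plus strand) was at 16.2, 17.6 and 20.5 CPM against 10.2, 11.02 and 12.2 CPM. Its spread was small in both groups, and its mean CPM was 1.63-fold lower. The fitted change was -0.69 on the log2 scale (SE 0.19, adjusted p = 0.0427). None of the 6 fits without 1 library gave Cdk4 an adjusted p under 0.05, with log2 fold changes of -0.76 to -0.56 and adjusted p of 0.0740 to 0.129. Cdk4 overlaps Tspan31 on the opposite strand.

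Of the CIP/KIP inhibitors, neither passed the test, and their values lay in opposite directions. Cdkn1a (chr17:29090976-29100727, plus strand), a target of p53, was at 114.1, 152.6 and 131.9 CPM in Nf1fl/fl;DhhCre and at 112.0, 90.0 and 108.5 CPM in the double knockout. The lowest Nf1fl/fl;DhhCre library was just above the highest of the double knockout, and the log2 fold change was -0.36 (SE 0.16, 95% confidence interval -0.72 to 0.01, adjusted p = 0.150). Cdkn1b (chr6:134920401-134925513, plus strand), whose protein accumulates in resting cells, was at 28.2, 30.3 and 23.7 CPM against 43.0, 34.4 and 35.4 CPM. All 3 double-knockout libraries lay above the others, but the change of 0.45 (SE 0.17, 95% confidence interval 0.06 to 0.85) had an adjusted p of 0.1001. Both intervals exclude a 2-fold change in either direction.

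The INK4 inhibitors split. Cdkn2b (chr4:89306299-89311039, minus strand), an inhibitor induced by TGF-beta, was called lower, at 19.6, 10.2 and 16.4 CPM in Nf1fl/fl;DhhCre and 4.70, 4.36 and 4.09 CPM in the double knockout. The double-knockout libraries lay close together (SD 0.305 CPM), whereas the others varied more (SD 4.79 CPM). These levels rest on 171 to 283 counts against 53 to 62 counts. The mean CPM was 3.51-fold lower, and the fitted log2 fold change was -1.74 (SE 0.36, 95% confidence interval -2.58 to -0.90, adjusted p = 0.0200). The call was lost without Nf1fl/fl;DhhCre replicate 1 (-1.53) or 3 (-1.64) and without double-knockout replicate 2 (-1.74) or 3 (-1.68). Cdkn2c (chr4:109660876-109667189, minus strand) was at 10.9, 9.83 and 8.85 CPM against 11.95, 11.2 and 6.67 CPM. The groups overlapped, with a log2 fold change of -0.05 (SE 0.27, 95% confidence interval -0.69 to 0.59, adjusted p = 0.917). Cdkn2a (chr4:89274471-89294653, minus strand), which encodes p16 and ARF, had 5, 2 and 22 counts in Nf1fl/fl;DhhCre and 5, 0 and 2 in the double knockout and was not tested. For the library with 0 counts, 3 counts set an upper limit of 0.247 CPM, which covers counting error only.

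**Figure D2:**
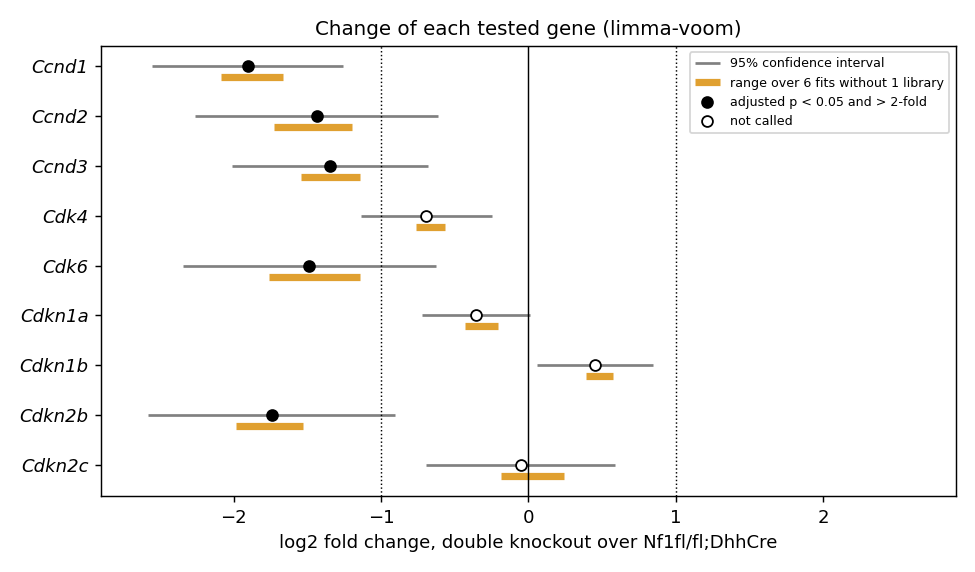
For the 9 tested members, points show the limma-voom log2 fold change of the double knockout over Nf1fl/fl;DhhCre, grey lines its 95% confidence interval and orange bars the range over the 6 fits that leave out 1 library; dotted lines mark 2-fold. The 5 filled points (adjusted p under 0.05 and more than 2-fold) lie between -1.91 and -1.35, and the orange bar crosses 0 only for Cdkn2c.

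In all, 5 of the 9 tested members were called lower, where 5.36% of all genes were, and none was called higher by limma-voom, edgeR or DESeq2. None was higher with more than 2-fold at an unadjusted p under 0.05 either. At an adjusted p under 0.05 whatever the fold, 6 were lower. The groups did not overlap in 7 of the 9 with the double knockout below, where 20.5% of all genes were so, and in 1 above, where 21.8% were. The median log2 fold change of the 9 was -1.35, against 0.015 over all genes tested. The fits without Nf1fl/fl;DhhCre replicate 1 called none of them, those without Nf1fl/fl;DhhCre replicate 3 or double-knockout replicate 2 called Ccnd1 alone, and that without double-knockout replicate 3 called Ccnd1 and Ccnd3. Without Nf1fl/fl;DhhCre replicate 2 or double-knockout replicate 1, all 5 were called. Calls over all genes changed in these fits too, from 839 of 15652 genes called lower with all libraries. Without Nf1fl/fl;DhhCre replicates 1, 2 and 3 they were 181 of 16031, 1028 of 15943 and 498 of 15964. Without double-knockout replicates 1, 2 and 3 they were 577 of 16094, 326 of 16002 and 473 of 15979.

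Levels of different genes were compared as CPM per kb of exon sequence. In Nf1fl/fl;DhhCre the order was Ccnd1 (237 ± 66.6 CPM per kb), Cdkn1a (37.4 ± 5.42), Ccnd2 (28.8 ± 9.04), Cdk6 (15.7 ± 6.49), Cdkn2b (11.1 ± 3.45), Cdkn1b (6.02 ± 0.75), Cdk4 (5.58 ± 0.67), Ccnd3 (3.79 ± 1.01), Cdkn2c (3.67 ± 0.38) and Cdkn2a (0.534 ± 0.589; SD, n = 3). Neighbours in this order had separate ranges only for Ccnd1 over Cdkn1a, Cdkn2b over Cdkn1b, Cdk4 over Ccnd3 and Cdkn2c over Cdkn2a. In the double knockout the order was Ccnd1 (63.6 ± 19.8 CPM per kb), Cdkn1a (29.1 ± 3.34), Ccnd2 (10.9 ± 4.86), Cdkn1b (8.25 ± 1.03), Cdk6 (5.53 ± 2.13), Cdkn2c (3.70 ± 1.06), Cdk4 (3.43 ± 0.31), Cdkn2b (3.15 ± 0.22), Ccnd3 (1.45 ± 0.28) and Cdkn2a (0.151 ± 0.173). Here the ranges were separate for Ccnd1 over Cdkn1a, Cdkn1a over Ccnd2, Cdkn2b over Ccnd3 and Ccnd3 over Cdkn2a. Ccnd1 was first in both groups, while Cdkn2b moved from place 5 to 8, Cdkn1b from 6 to 4 and Cdkn2c, at nearly the same level, from 9 to 6. Most neighbours around these places had overlapping ranges. The 3 D cyclins summed to 270.5, 193.5 and 345.7 CPM per kb against 102.6, 53.7 and 71.6, and their ratio to the sum of Cdkn1a and Cdkn1b was 7.06, 3.90 and 8.17 against 2.50, 1.63 and 1.87. The ratio of Cdk4 plus Cdk6 to the 3 INK4 genes overlapped between groups (1.079 to 1.77 against 1.084 to 1.42). These sums and ratios were chosen after the values were seen and were not tested.

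The make-up of each family within a library does not depend on scaling between libraries. Ccnd1 made up 86.6%, 89.0% and 88.3% of the D cyclin level in Nf1fl/fl;DhhCre and 82.5%, 84.4% and 85.1% in the double knockout. The share was lower by 3.997 percentage points (88.0 ± 1.25% against 84.0 ± 1.32%, SD, n = 3) and the groups did not overlap (exact permutation test, two-sided, p = 0.1). With counts not divided by length, the difference was -6.11 points. With 3 libraries against 3, the smallest p this test can give is 0.1, so that no share could reach 0.05, and the 5 values compared in this way had adjusted p of 0.125 to 0.2. Cdkn1a made up 83.9%, 86.6% and 87.7% of the CIP/KIP pair against 77.0%, 77.0% and 79.7% (exact permutation p = 0.1). Cdkn2c made up 21.95%, 33.0% and 20.3% of the INK4 level against 54.5%, 57.0% and 44.8% (exact permutation p = 0.1), while Cdkn2b made up 66.1% to 76.5% of it against 41.4% to 53.2%. Cdk4 made up 25.1%, 36.2% and 21.9% of the kinase level against 28.2%, 42.9% and 47.9%, with overlap (exact permutation p = 0.2). This last difference of 11.9 points was 5.27 with counts not divided by length, and it ran from 7.83 without double-knockout replicate 3 to 17.6 without double-knockout replicate 1.

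**Figure D3:**
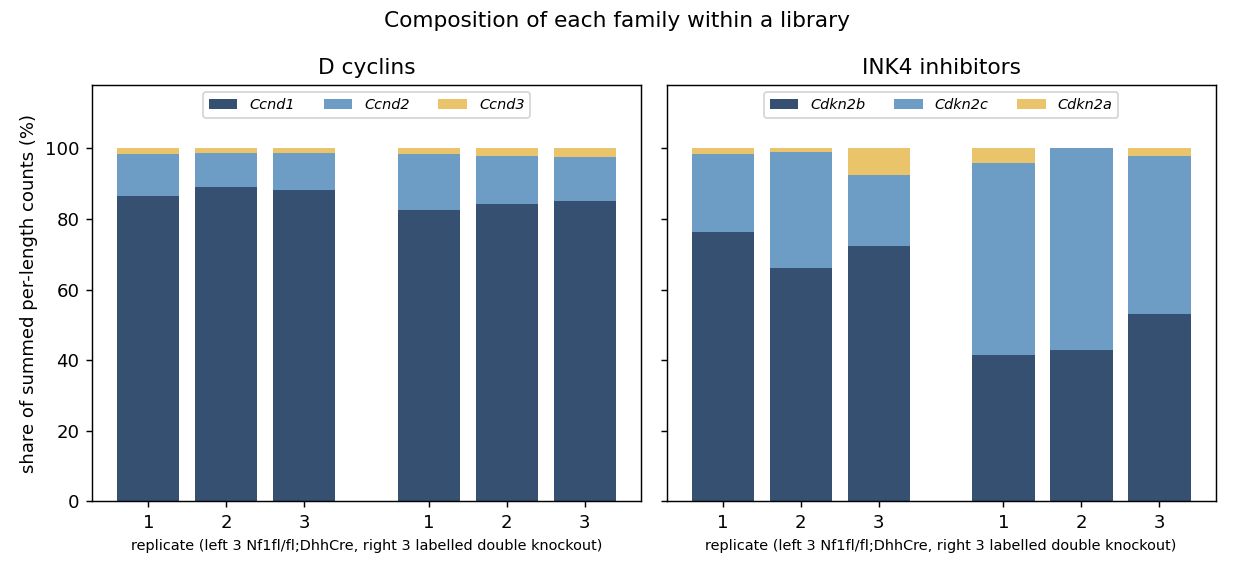
Stacked bars give the percentage of the summed per-length counts of each family in each library, with 3 Nf1fl/fl;DhhCre libraries on the left and 3 labelled double knockout on the right of each panel. Ccnd1 held at least 82.5% of the D cyclins in every library, whereas Cdkn2b held 66.1% to 76.5% of the INK4 level on the left and 41.4% to 53.2% on the right.

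Because Cre acted in the SC lineage, each member was also set against general SC genes, as its log2 CPM minus the mean log2 CPM of Sox10, Erbb3, S100b, Cdh19 and Foxd3. On this log2 scale Ccnd1 was at 3.33, 2.89 and 3.76 in Nf1fl/fl;DhhCre and at 1.51, 1.003 and 1.22 in the double knockout. The difference was -2.08 (exact permutation test, two-sided, p = 0.1, the smallest possible), and it was -1.74 without S100b in the reference, a choice made after seeing that S100b was called higher. Leaving out S100b moves every member up alike. The other differences on this scale, given as values without a test, were -1.61 for Ccnd2, -1.54 for Ccnd3, -0.87 for Cdk4, -1.65 for Cdk6, -0.53 for Cdkn1a, 0.28 for Cdkn1b, -1.92 for Cdkn2b and -0.20 for Cdkn2c. Without S100b in the reference they were -1.27, -1.20, -0.53, -1.32, -0.19, 0.62, -1.59 and 0.14 for these genes in the same order, so that Cdkn2c turned direction. SC markers mark the cell type and do not show which cells held the members' transcripts.

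Within each group, the summed level of the 3 D cyclins, most of it Ccnd1, ranked the libraries as the macrophage markers did. Each order holds only 3 libraries, and this was not a planned comparison. In Nf1fl/fl;DhhCre replicates 1, 2 and 3 the macrophage markers summed to 1820, 1293 and 2473 CPM beside summed D cyclin levels of 270.5, 193.5 and 345.7 CPM per kb, and in the double knockout to 552.9, 228.9 and 461.4 beside 102.6, 53.7 and 71.6. Of the D cyclins, Ccnd3 alone did not follow this order in the double knockout, where replicate 3 was highest (13.5, 9.95 and 14.7 CPM). Cdk6 did not follow it there either (111.6, 63.2 and 57.3 CPM). Cdkn2b followed it in neither group (19.6, 10.2 and 16.4 against 4.70, 4.36 and 4.09 CPM). The lowest library of the D cyclin sum in both groups, replicate 2 of each, was the one with the most muscle transcript. Fibroblast markers summed to 7821, 8598 and 8083 CPM in Nf1fl/fl;DhhCre, another order, and to 4605, 2866 and 3222 CPM in the double knockout, the same order as the summed D cyclins. T cell markers had the same order in Nf1fl/fl;DhhCre (14.3, 12.3 and 46.7 CPM) but not in the double knockout (6.77, 6.25 and 4.56 CPM). The part of these cell types in the D cyclin levels was not tested. The 5 genes whose log2 CPM followed Ccnd1 most closely over the 6 libraries, among the 10221 genes whose average log2 CPM was 3 or more, were Ptpn1, Nfam1, Inpp5d, Apbb1ip and Col14a1. Their Pearson r was 0.998 to 0.999, and 65 genes had an r of 0.99 or more. Since they were chosen for following Ccnd1, their lower level in the double knockout follows from the choice. All 5 were called lower, with log2 fold changes of -2.72 (Nfam1) to -1.13 (Ptpn1). Of these, Nfam1, Inpp5d and Apbb1ip are chiefly known from blood cells and Col14a1 encodes a collagen of connective tissue. Among the members, r with Ccnd1 was 0.977 for Ccnd3, 0.970 for Ccnd2, 0.961 for Cdk6, 0.952 for Cdkn2b, 0.898 for Cdk4, 0.739 for Cdkn1a, 0.047 for Cdkn2c and -0.789 for Cdkn1b. These values share the same 6 libraries and the same group difference and are descriptions without a test.

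**Figure D4:**
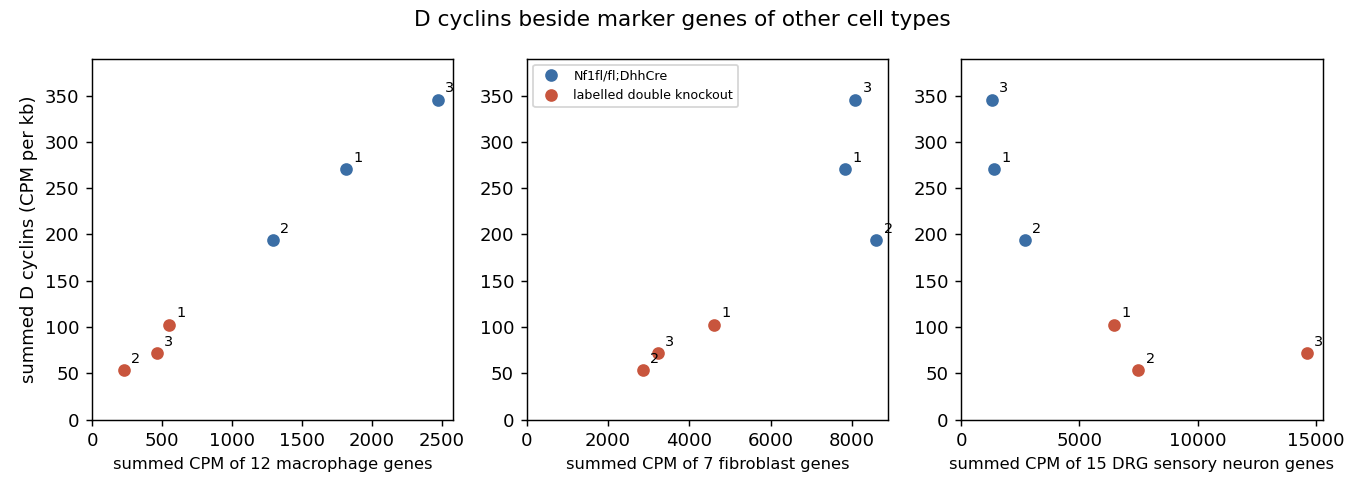
The summed level of the 3 D cyclins (CPM per kb) is plotted against the summed CPM of 12 macrophage, 7 fibroblast and 15 DRG sensory neuron markers, with a point for each library, numbered by replicate (blue Nf1fl/fl;DhhCre, red labelled double knockout; linear axes from 0). The double-knockout points lie at low macrophage and fibroblast and high neuron levels. Within each group the summed D cyclins rank as the macrophage markers do, an order of only 3 libraries that was not a planned comparison.

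Genes that act around the members were taken from the same fit. Of 11 tested cyclins and kinases of later phases, 2 were called lower, where 5.36% of all genes were: Ccna2, a cyclin of S phase (log2 fold change -1.16, adjusted p = 0.0346), and Ccnb1, a mitotic cyclin (-1.92, adjusted p = 0.0294). None was called higher, and the median of the 11 was -0.30. The most abundant, Cdk7, a kinase that activates other CDKs, was at 134.8 against 133.8 CPM. Ccna2 kept its call only without double-knockout replicate 3, and Ccnb1 only without that library or without Nf1fl/fl;DhhCre replicate 2. In the fits without any other single library, neither was called. Cdk2 was not called with all libraries (-0.95, adjusted p = 0.0669), but it was called without Nf1fl/fl;DhhCre replicate 2 (adjusted p = 0.0325). Of 13 pocket proteins and E2F factors, 2 were called lower, beside the same 5.36% of all genes: Rbl1, which encodes the pocket protein p107 (-1.28, adjusted p = 0.0314), and E2f8, a repressor of cell-cycle genes (-2.21, adjusted p = 0.0446). Rb1 itself was at 149.7, 139.9 and 147.8 CPM against 171.4, 147.3 and 142.3 (log2 fold change 0.07, adjusted p = 0.714). The number called in this list was 0 without Nf1fl/fl;DhhCre replicate 1 or 3 or without double-knockout replicate 1 or 2, and 1 without either remaining library (Rbl1 without Nf1fl/fl;DhhCre replicate 2, E2f8 without double-knockout replicate 3). Cdkn1c and Cdkn2d, the other inhibitors of the 2 families, were not called, at -0.02 and 0.53.

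Of 20 E2F target genes, 3 were called lower and none higher, where 5.36% and 8.03% of all genes were, with a median log2 fold change of -0.87. Top2a, a topoisomerase of dividing cells, was at 37.1, 41.9 and 40.3 CPM in Nf1fl/fl;DhhCre and at 17.3, 6.25 and 16.6 in the double knockout (-1.68 on the log2 scale, SE 0.34, adjusted p = 0.0191). The proliferation marker Mki67 was at 91.3, 130.1 and 117.5 CPM against 62.1, 23.4 and 65.3 (-1.28, adjusted p = 0.0498, up to 0.127 without 1 library). Mcm3, part of the replicative helicase, was the third (-1.25, adjusted p = 0.0349, up to 0.112 without 1 library), and Birc5, a mitotic regulator, passed the adjusted p below 2-fold (-0.86, adjusted p = 0.0286, up to 0.0990 without 1 library). Mki67 was lowest in replicate 1 within Nf1fl/fl;DhhCre, where the summed D cyclins were lowest in replicate 2, and in replicate 2 within the double knockout, as they were. The groups did not overlap, with the double knockout below, in 14 of the 20, where 20.5% of all genes were so. The list's calls numbered 0 without Nf1fl/fl;DhhCre replicate 1 or 3 and 1, Top2a, without any other single library. Mki67 and Mcm3 were called in none of these 6 fits.

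Cdkn1a is a target of p53, and of 14 genes for p53 and its targets 4 were called lower and none higher, beside the same shares of all genes (median log2 fold change -0.998). The called genes were Eda2r, a death-domain receptor (-2.14, adjusted p = 0.00598), Btg2, an antiproliferative gene (-1.46, adjusted p = 0.0106), Plk2, a polo-like kinase (-1.26, adjusted p = 0.01004), and Trp53inp1 (-1.08, adjusted p = 0.0240). Eda2r was at 33.4, 29.6 and 32.5 CPM against 8.53, 7.57 and 5.94, a wider gap than that of Cdkn1a. Trp53 passed the adjusted p below 2-fold (-0.71, adjusted p = 0.0394, up to 0.105 without 1 library). With any single library left out, 3 or 4 of the list were called, and Eda2r, Btg2 and Plk2 were called in all 6 such fits.

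Of 10 genes for the turnover of D cyclins and p27, 1 was called higher, a share near the 8.03% of all genes, and none lower. Fbxo31, the subunit of a ubiquitin ligase known to target cyclin D1, was at 11.3, 12.8 and 10.3 CPM in Nf1fl/fl;DhhCre and at 30.4, 34.5 and 34.0 in the double knockout. The change was 1.52 on the log2 scale (SE 0.17, adjusted p = 0.00764), and the call held in all 6 fits without 1 library. Skp2, the ligase subunit that recognises p27, passed the adjusted p as lower (-0.93, adjusted p = 0.0220), at 14.6, 13.2 and 13.2 against 6.38, 7.57 and 7.53 CPM. Skp1a, the adaptor of the same ligase family, and Gsk3b, a kinase that marks cyclin D1 for export and decay, passed it as higher (0.98, adjusted p = 0.0222, and 0.57, adjusted p = 0.0432). Leaving out single libraries raised the adjusted p of Skp2, Skp1a and Gsk3b to as much as 0.0822, 0.0748 and 0.109. The median of the 10 was 0.01. Neuron markers were higher in the same libraries, and their part in these values was not tested. Without Nf1fl/fl;DhhCre replicate 2 or double-knockout replicate 1, 2 genes of this list were called, the other being Skp1a.

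Of 15 transcriptional regulators of the inhibitor genes (Polycomb proteins, FOXO factors and others), none passed an adjusted p of 0.05, and their log2 fold changes ran from -1.02 to 0.58 with a median of -0.13. The 2 most abundant were Foxo1, a FOXO factor that activates Cdkn1b (226.6 against 215.1 CPM, adjusted p = 0.776), and Bmi1, a Polycomb protein that represses the Cdkn2a locus (89.9 against 79.5 CPM, adjusted p = 0.412).

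**Figure D5:**
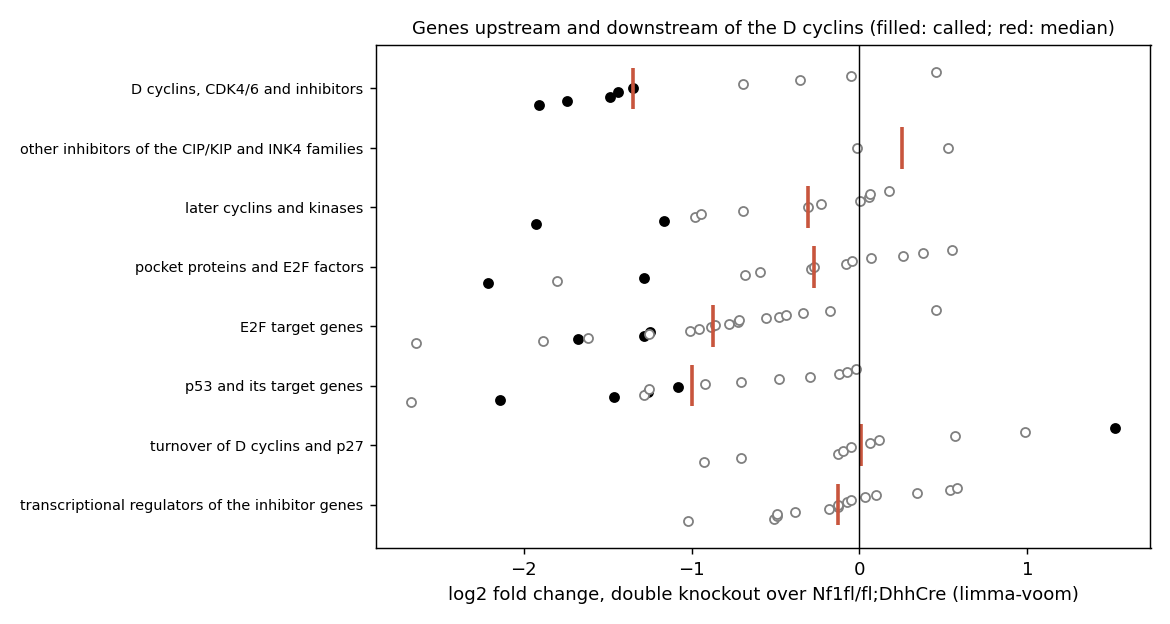
Each point is the limma-voom log2 fold change (double knockout over Nf1fl/fl;DhhCre) of a tested gene, by list; filled points were called (adjusted p under 0.05 and more than 2-fold) and red lines are medians. Points are spread vertically only for legibility. The members' median of -1.35 is the lowest of the 8 lists, and the only filled point to the right of 0 is Fbxo31 at 1.52.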

How the data were processed

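RNA from mouse DRG/tumors was amplified (NuGEN Ovation) and prepared as Nextera XT libraries. The deposited counts are whole numbers of reads per gene, made by the authors with TopHat (mm10) and featureCounts after CASAVA 1.4, without normalization. Annotation and strand setting are not given in the sources used here. Amplified reads without molecular identifiers are not independent molecules. Titles and deposited column names give different identifying numbers for 2 libraries of each genotype. The genotype is not affected, but the library of the other sequencing run is double-knockout replicate 3 or 2. Replicate numbers follow the order of the labels and pair nothing.

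Members and lists were chosen with earlier results of these data known. Low genes were removed with filterByExpr (the equivalent of 10 counts in at least 3 libraries, 15 in total). TMM factors and limma-voom were applied (limma 3.58.1, edgeR 4.0.16, R 4.3.3), with a model of genotype alone and Benjamini-Hochberg adjustment over all genes tested. CPM used TMM-scaled totals, and log2 CPM a prior count of 0.5. Per-length levels used the union of exons in GENCODE M21 (GRCm38). Shares were compared by two-sided exact permutation (scipy 1.17.1). The other settings tried were DESeq2 1.42.0, the quasi-likelihood test of edgeR, other scalings, filters, weights, lengths and thresholds, and each library left out. On data simulated with known changes and the dispersions edgeR estimated here, DESeq2 called unchanged genes more often than limma-voom or edgeR did. The simulation held no tissue admixture or outlying library, so it does not show how the tools behave on the real libraries. All members were named, and of the lists of genes that act around them those with an adjusted p under 0.05 or otherwise the most abundant. Lists of cell-type markers were given mainly as counts of calls and summed levels. Figures were drawn with matplotlib 3.10.9.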

Additional observations from a re-analysis of the deposited data

How the results depend on the processing

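The 5 members called lower were called in every setting that kept all 6 libraries, and no setting called a member higher. Leaving out 1 library gave 0 to 5 members called lower and 362 to 2285 DEGs over all genes, against 5 and 2096, the lowest of both without Nf1fl/fl;DhhCre replicate 1. DEGs numbered 1033 without Nf1fl/fl;DhhCre replicate 3 and 1018 without double-knockout replicate 2. The DEGs of all genes numbered 2264 with edgeR and 2907 with DESeq2. Cdkn2c turned direction, to 0.0098 with edgeR, 0.00071 with DESeq2, 0.0055 with sample quality weights, and it ran from -0.19 to 0.24 over the fits without 1 library (0.034 without Nf1fl/fl;DhhCre replicate 1, 0.24 without double-knockout replicate 3). The difference in the Ccnd1 share was -6.11 points with counts not divided by length, and that in the Cdkn1a share -5.57 with the longest transcript as length. The difference in the Cdk4 share, 11.9 points, was 5.27 with counts not divided by length and 7.83 to 17.6 without 1 library. Cdk4 had an adjusted p of 0.0509 with every gene with a count. The cause of these changes was not tested. No paired analysis was possible because the labels number the libraries singly and name no pairs. Cdkn2a had at most 22 counts in a library and reached 10 in 1 library, where the filter asks for 3.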
